A study of Homo sapiens with 6 samples.

Results

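Growth factor signals that pass through the RAS, RAF, MEK and ERK kinases end in a set of genes whose mRNA follows the activity of ERK, and 10 of these genes were examined in thyroid cancer cells in which GDF15 was knocked down. They were listed by name as ERK target and feedback genes, with no value in the rule, though earlier results of these data were known when the list was made: DUSP4, DUSP5 and DUSP6, which encode dual specificity phosphatases of the MAP kinases, SPRY2, SPRY4 and SPRED1, which encode Sprouty and Spred proteins, the transcription factor genes ETV4, ETV5 and FOSL1, and PHLDA1. The deposited table lists 34738 genes, all 10 are among them, and all 10 were among the 11867 genes tested because their mean over the 6 libraries was at least 1 FPKM, a unit that scales fragments to the length of the transcript and the size of the library.

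The siGDF15 group held 3 libraries of cells transfected with an siRNA against GDF15, a secreted protein of the TGF-beta superfamily, and the NC group held 3 libraries of control cells. The labels give KHM-5M as the line of every library, a line derived from an anaplastic thyroid carcinoma, whereas 1 legend of the study names TPC-1, a papillary carcinoma line. NC cells are a blank control in the deposited design, whereas the study's methods speak of negative control cells and list a negative control siRNA. If the NC cells were blank, an effect of transfection and an effect of losing GDF15 cannot be told apart, and if they received the control siRNA, transfection was matched. The methods place the siRNA complexes in serum-free medium and give neither the time of harvest nor the medium of the control cells. All libraries come from cells of 1 line and 1 siRNA sequence, and the study calls the 3 libraries of a group biological replicates without saying how they were separated, so p-values measure the spread between these libraries. Poly(A) RNA was sequenced as read pairs of 150 bases. Expected counts summed to between 67569576 and 68025163 per library in NC and to 67672774, 51738814 and 67793417 in siGDF15. The counts of the 10 genes ran from 620 for DUSP4 to 28060 for PHLDA1. These counts are not numbers of read pairs, and 1 read pair was taken as 4 counts. GDF15 itself was at 22.4, 19.3 and 23.1 FPKM in NC and at 10.8, 10.5 and 10.7 FPKM in siGDF15. Of the thyroid markers, PAX8 was at 54.3 FPKM or more in each library, while SLC5A5 and NKX2-1 were under 0.1 FPKM in each.

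In this pathway ERK phosphorylates transcription factors, among them the ETS factors and the AP-1 proteins, and it releases genes from the repressor Capicua (CIC). Some of the genes that are then transcribed act back on the pathway. DUSP6 and DUSP5 remove the activating phosphates from ERK, in the cytoplasm and in the nucleus respectively, and DUSP4 is a nuclear phosphatase of ERK and other MAP kinases. Sprouty and Spred proteins restrain the pathway between the receptor and RAF. SPRED1 does so with neurofibromin, the RAS inactivator. ETV4 and ETV5 are ETS factors of the PEA3 subfamily and are held down by CIC, and FOSL1 encodes FRA1, a partner of JUN in AP-1. Sets of such mRNAs are used as a readout of ERK output in thyroid tumors, where mutations of BRAF and RAS are common.

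Of the 10 genes, 4 fell in siGDF15, and these were the 3 transcription factor genes and SPRY4. FOSL1, ETV4 and ETV5 had log2 fold changes of -0.84, -0.90 and -0.69, and SPRY4 one of -0.31. The 3 phosphatase genes, SPRY2, SPRED1 and PHLDA1 did not pass the test. A call was an adjusted p under 0.05 in edgeR's quasi-likelihood test of expected counts, with Benjamini-Hochberg adjustment over all tested genes. By that rule 61.4% of all tested genes were called. In the lower direction the genes called were 4 of 10, beside 31.4% of all tested genes, and in the higher direction 0 of 10, beside 30.0%. A share of 4 in 10 is near the background of lower calls, so the count alone sets the 10 genes apart from no other genes. With the study's further limit, an absolute log2 fold change of at least 1, 0 of the 10 were called, beside 7.81% of all tested genes. On CPM, the counts scaled to library size with TMM factors (scaled CPM below), the groups did not overlap for the same 4 genes and overlapped for 6, whereas they did not overlap for 67.9% of all tested genes. On FPKM, which has no TMM factors, they did not overlap for 6 genes, all lower in siGDF15, with DUSP5 and DUSP6 added, and 42.8% of all tested genes were lower without overlap on that scale. At an unadjusted p under 0.05 there were 5 of 10 genes, beside 65.3% of all tested genes, and the gene added was SPRY2, which was higher in siGDF15. The median log2 fold change of the 10 genes was -0.09, and that of all tested genes 0.003.

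**Figure D1:**
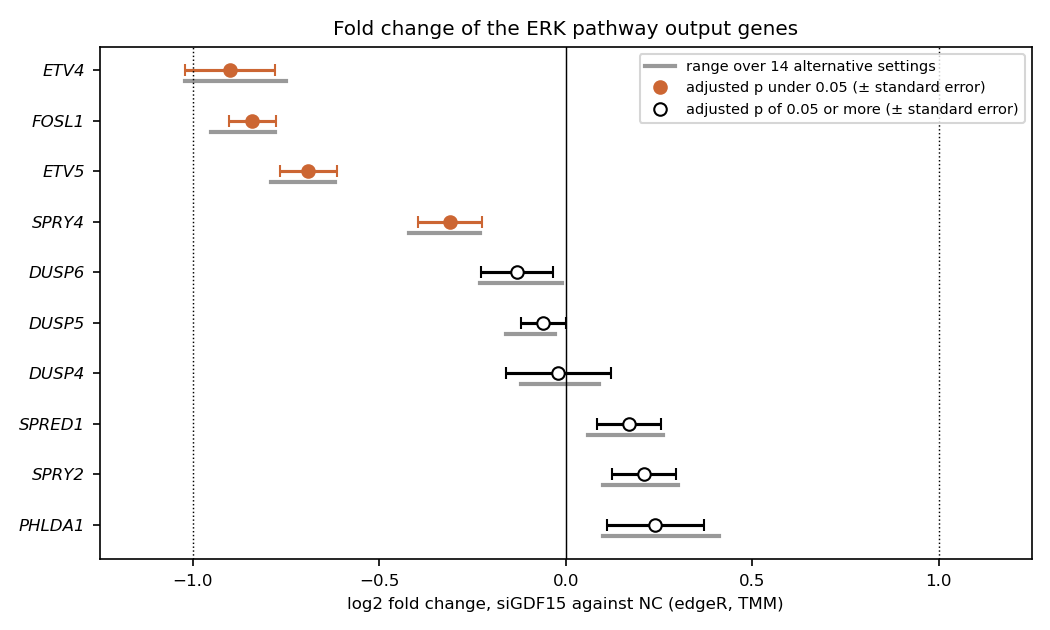
Log2 fold change of each of the 10 genes in siGDF15 against NC (horizontal axis, edgeR with TMM scaling), with its standard error. Filled points passed an adjusted p of 0.05, open points did not, grey lines span the values under 14 alternative settings and dotted lines stand at the fold limit of 1. The grey lines of ETV4, FOSL1, ETV5, SPRY4, DUSP5 and DUSP6 lie wholly below 0. Those of SPRY2, SPRED1 and PHLDA1 lie wholly above 0, and only the line of DUSP4 crosses 0.

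ETV4 (ENSG00000175832) and ETV5 (ENSG00000244405) are close relatives, and the sequences below show how far reads can tell them apart. ETV4 lies on the minus strand of chromosome 17 (GRCh38, chr17:43527846-43579620) and ETV5 on the minus strand of chromosome 3 (chr3:186046314-186110318). The longest run of bases that their coding sequences share is 33 bases, much shorter than a read. It spans coding positions 1140 to 1172 of the 1452 coding bases of ETV4 (ENST00000319349.9) and positions 1221 to 1253 of the 1530 coding bases of ETV5 (ENST00000306376.9). Both stretches are printed with 30 bases on either side, from the GENCODE 29 transcripts, and capitals mark the shared run.
ETV4: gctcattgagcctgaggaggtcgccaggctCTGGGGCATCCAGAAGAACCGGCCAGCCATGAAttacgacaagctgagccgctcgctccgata
ETV5: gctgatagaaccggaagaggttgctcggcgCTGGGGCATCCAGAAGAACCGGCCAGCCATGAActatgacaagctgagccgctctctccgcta
The same comparison gave a longest run of 14 bases for SPRY2 and SPRY4 and of 14 bases for DUSP5 and DUSP6. Windows of 100 bases were also compared with the transcripts of all other genes. None of the windows of 9 of the 10 genes occurred in another gene. For ETV5, 66 of 5945 windows (1.11%) occurred in DGKG, which overlaps it on the same strand and had between 66 and 288 counts, against at least 3204 counts for ETV5.

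ETV4 was at 8.98, 11.1 and 7.53 FPKM in NC replicates 1 to 3 and at 4.44, 4.49 and 4.80 FPKM in siGDF15 replicates 1 to 3. All 3 siGDF15 libraries were low and close together, and the NC libraries were spread, with replicate 2 highest. In log2 the fold change of ETV4 was -0.90 (standard error 0.12, edgeR adjusted p = 3.5e-04), and its means were 9.20 ± 1.78 and 4.58 ± 0.197 FPKM (SD, n = 3). ETV4 overlaps DHX8 on the opposite strand. DHX8, an RNA helicase gene of the spliceosome, had between 2908 and 5034 counts and a log2 fold change of -0.24 (edgeR adjusted p = 0.0064). The library kit marks the strand, but the strand setting of the counting is not given in the sources used here, so the part of DHX8 reads in the value of ETV4 was not tested.

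ETV5 was at 17.0, 18.7 and 15.3 FPKM in NC and at 10.4, 9.62 and 9.28 FPKM in siGDF15. The lowest NC library was well above the highest siGDF15 library. For ETV5 the log2 fold change was -0.69 (standard error 0.076, edgeR adjusted p = 9.6e-05), with means of 17.0 ± 1.69 and 9.78 ± 0.595 FPKM (SD, n = 3). The ratio of ETV4 to ETV5 within a library was 0.529, 0.594 and 0.494 in NC and 0.425, 0.467 and 0.517 in siGDF15. These ranges overlapped, so the 2 PEA3 factors fell by amounts that this spread did not separate.

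FOSL1 (ENSG00000175592, minus strand, chr11:65892049-65900419) was the most abundant of the 10 genes, and its counts, from 10984 to 27783, were among the deepest. It was at 189.6, 181 and 197 FPKM in NC and at 103, 101 and 90.6 FPKM in siGDF15. No other gene of the table overlapped it. The 2 groups lay far apart relative to their spread, with means of 189 ± 7.85 and 98.1 ± 6.52 FPKM (SD, n = 3). The log2 fold change was -0.84 (standard error 0.063, edgeR adjusted p = 1.1e-05), which is 0.558 times the NC level. The fall of FOSL1 stayed between -0.95 and -0.78 under all 14 alternative settings, and each of these passed the threshold.

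**Figure D2:**
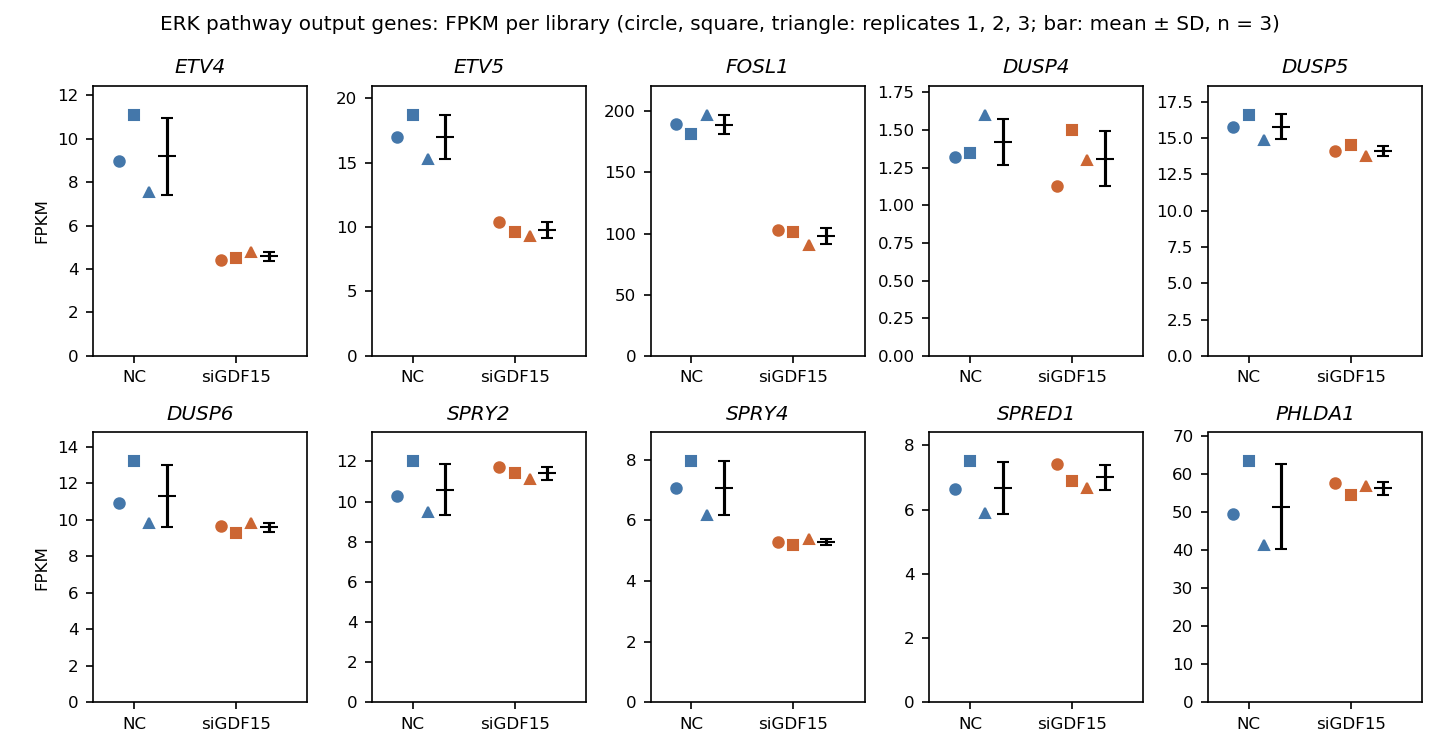
FPKM of each of the 10 genes by library (vertical axes from 0, a scale of its own for each gene). Circles, squares and triangles are replicates 1, 2 and 3 of NC (blue) and siGDF15 (orange), and bars give mean ± SD of 3 libraries. ETV4, ETV5, FOSL1 and SPRY4 have every siGDF15 library below every NC library, DUSP5 and DUSP6 do so on this scale by a narrow margin, and PHLDA1, SPRY2 and SPRED1 have siGDF15 libraries inside the NC range.

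Promoter sequence was at hand for 5 of the 10 genes, DUSP6, SPRY2, SPRY4, SPRED1 and PHLDA1, as 7 RefSeq windows on GRCh38.p14 from 250 bases before to 50 bases after a start site, 3 of them for SPRY2. The windows of SPRY4, which fell, and of DUSP6, which was not called, are printed so that both can be compared with the motifs searched. By the positions of the deposited table, the DUSP6 window spans the 5′ end of its gene, at 89352501. The SPRY4 window lies wholly inside its gene, whose 5′ end is at 142326455, so sequence around that end was not searched. Capitals mark the ETS core GGAA or its reverse complement TTCC.
SPRY4 promoter, minus strand, chr5:142324198-142324497: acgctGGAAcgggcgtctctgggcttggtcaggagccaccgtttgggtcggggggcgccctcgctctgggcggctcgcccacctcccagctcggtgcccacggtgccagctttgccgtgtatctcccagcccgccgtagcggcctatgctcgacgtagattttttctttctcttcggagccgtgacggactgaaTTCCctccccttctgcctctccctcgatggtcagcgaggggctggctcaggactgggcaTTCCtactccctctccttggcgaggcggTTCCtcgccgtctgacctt
DUSP6 promoter, minus strand, chr12:89352452-89352751: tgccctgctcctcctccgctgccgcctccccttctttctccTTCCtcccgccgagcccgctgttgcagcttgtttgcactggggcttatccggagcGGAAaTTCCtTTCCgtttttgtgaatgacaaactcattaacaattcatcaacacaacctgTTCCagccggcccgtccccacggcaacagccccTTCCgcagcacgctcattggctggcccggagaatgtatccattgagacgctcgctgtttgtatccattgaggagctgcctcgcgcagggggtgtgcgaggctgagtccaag
SPRY4 held 4 matches of the ETS core and DUSP6 held 6, against a median of 3 over the 35116 promoters searched. All 7 windows of the set held the core, as did 95.5% of all promoters, so its presence marks nothing out. None of the 7 windows held TGAATGAA or TGAATGGA, forms of the CIC octamer present in 1.65% and 1.03% of all promoters. Absent too were the AP-1 motif TGANTCA (7.71%), the CRE motif TGACGTCA (1.85%), the longer ETS motif CCGGAAG (10.3%) and the CArG box of SRF (1.29%). Both strands were searched, and a match to the longer ETS motif also counts as a match to the core. These letters are absent from these windows, and sites farther away were not searched.

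Among the phosphatases, DUSP6 (ENSG00000139318, minus strand, chr12:89347235-89352501), the cytoplasmic ERK phosphatase, was at 10.9, 13.2 and 9.85 FPKM in NC and at 9.66, 9.30 and 9.81 FPKM in siGDF15. The siGDF15 libraries were all below the lowest NC library on this scale, but the closest pair nearly touched. On scaled CPM they lay inside the NC range, with 41.8 to 43.3 in siGDF15 against 40.9 to 53.9 in NC. The log2 fold change was -0.13 (standard error 0.097, edgeR adjusted p = 0.27). Without NC replicate 3 it was -0.22 (edgeR adjusted p = 0.0472) and without NC replicate 2 it was -0.01 (edgeR adjusted p = 0.866), so the call of DUSP6 turned on which NC library was left out.

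DUSP5 (ENSG00000138166, plus strand, chr10:110497907-110511533), the nuclear ERK phosphatase, was at 15.8, 16.6 and 14.9 FPKM in NC and at 14.1, 14.5 and 13.8 FPKM in siGDF15. The groups were apart on FPKM and overlapped on scaled CPM. Its log2 fold change was -0.06 (standard error 0.061, edgeR adjusted p = 0.45). With limma on log2(FPKM + 1), which has no TMM scaling, it was -0.15 and passed the threshold (limma adjusted p = 0.0336). The tested genes as a whole had a median of -0.081 under that fit.

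DUSP4 (ENSG00000120875, minus strand, chromosome 8 from 29333064 to 29350684) was the least abundant of the 10 genes, at 1.32, 1.35 and 1.60 FPKM in NC and at 1.13, 1.50 and 1.30 FPKM in siGDF15. High and low libraries occurred in both groups. Its log2 fold change was -0.02 (standard error 0.14, edgeR adjusted p = 0.93). With 1 read pair taken as 4 counts, the lowest library held 155 read pairs of this gene, the thinnest data of the set. The sign of the DUSP4 value changed to 0.08 without NC replicate 3 and to 0.09 without siGDF15 replicate 1, and none of the 14 alternative settings called it.

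SPRY4 (ENSG00000187678, minus strand, chr5:142310427-142326455) was at 7.08, 7.94 and 6.18 FPKM in NC and at 5.29, 5.18 and 5.38 FPKM in siGDF15. The siGDF15 libraries differed little from each other and all were below NC. In log2 the difference of SPRY4 was -0.31 (standard error 0.086, edgeR adjusted p = 0.013), and its highest adjusted p over the 14 alternative settings was 0.044. The opposite-strand gene SPRY4-AS1 had 18 to 75 counts, against 1957 or more for SPRY4.

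SPRY2 (ENSG00000136158, minus strand, chr13:80335976-80341126), which encodes another Sprouty protein, was at 10.3, 12.0 and 9.50 FPKM in NC and at 11.7, 11.4 and 11.1 FPKM in siGDF15. On FPKM NC replicate 2 was the highest library of the 6 and the other NC libraries the lowest. On scaled CPM siGDF15 replicates 1 and 2, at 43.0 and 42.6, were above NC replicate 2, at 41.0. The log2 fold change was 0.21 (standard error 0.085, edgeR adjusted p = 0.064). DESeq2 called it higher at the same fold change (DESeq2 adjusted p = 0.0418), and scaling by the total count without TMM gave 0.10 (edgeR adjusted p = 0.325).

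SPRED1 (ENSG00000166068, plus strand, chr15:38252836-38357249) was at 6.63, 7.50 and 5.90 FPKM in NC and at 7.43, 6.88 and 6.67 FPKM in siGDF15. On FPKM NC replicate 2 was again highest and NC replicate 3 lowest, with the siGDF15 libraries between them. On scaled CPM siGDF15 replicates 1 and 2, at 65.7 and 62.1, were above NC replicate 2, at 61.7. Its log2 fold change was 0.17 (standard error 0.086, edgeR adjusted p = 0.11).

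PHLDA1 (ENSG00000139289, minus strand, chr12:76025447-76031776), a pleckstrin homology-like domain gene induced by growth factors, came after FOSL1 in abundance and was the most variable of the set in NC. It was at 49.5, 63.3 and 41.3 FPKM in NC and at 57.7, 54.4 and 56.8 FPKM in siGDF15. The siGDF15 libraries lay within the NC range and close together. The log2 fold change was 0.24 (standard error 0.13, edgeR adjusted p = 0.14).

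The levels, which FPKM scales by transcript length, fell in a steep order in NC. FOSL1 (189 FPKM) was first, PHLDA1 (51.4) next, and then came ETV5 (17.0) and DUSP5 (15.8), whose ranges overlapped. DUSP6 (11.3), SPRY2 (10.6), ETV4 (9.20), SPRY4 (7.06) and SPRED1 (6.68) followed, and neighbours among them overlapped. DUSP4 (1.42) was apart at the bottom. In siGDF15 FOSL1 and PHLDA1 kept the first places, at 98.1 and 56.3 FPKM, and DUSP4 the last, at 1.31. Between them the order was DUSP5 (14.1), SPRY2 (11.4), ETV5 (9.78), DUSP6 (9.59), SPRED1 (7.00), SPRY4 (5.28) and ETV4 (4.58). ETV5 thus stood above DUSP5 in NC and below SPRY2 in siGDF15, and ETV4 stood above SPRY4 and SPRED1 in NC and below both in siGDF15. Only ETV5 and DUSP6 were neighbours with overlapping ranges in siGDF15. The highest mean was 133 times the lowest in NC and 74.8 times in siGDF15.

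The NC libraries differed from each other more than the siGDF15 libraries did. On scaled CPM NC replicate 2 was highest and NC replicate 3 lowest in 8 of the 10 genes, an order found in 30.5% of all tested genes. FOSL1 had the opposite order, with replicate 3 highest and replicate 2 lowest, found in 28.3% of all tested genes, and DUSP4 had replicate 3 highest and replicate 1 lowest. The coefficient of variation was larger in NC than in siGDF15 in 8 of the 10 genes, beside 63.8% of all tested genes. Its median over the 10 genes was 11.4% in NC and 3.75% in siGDF15, and over all tested genes 6.78% and 4.74%. PHLDA1 varied by 21.0% in NC and 1.93% in siGDF15, ETV4 by 18.7% and 4.09%, and DUSP6 by 14.3% and 1.77%. Summed FPKM of 6 epithelial markers, which include KRT8, KRT18 and EPCAM, was 131, 108 and 159.7 in NC replicates 1 to 3, an order opposite to that of the 8 genes, and 139, 147 and 136 in siGDF15. The 5 of 8 fibroblast markers tested were not called, and the 8 together summed to 30.8, 34.1 and 39.9 FPKM in NC and to between 32.4 and 37.7 in siGDF15. The part of these differences between NC libraries in the results was not tested.

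**Figure D3:**
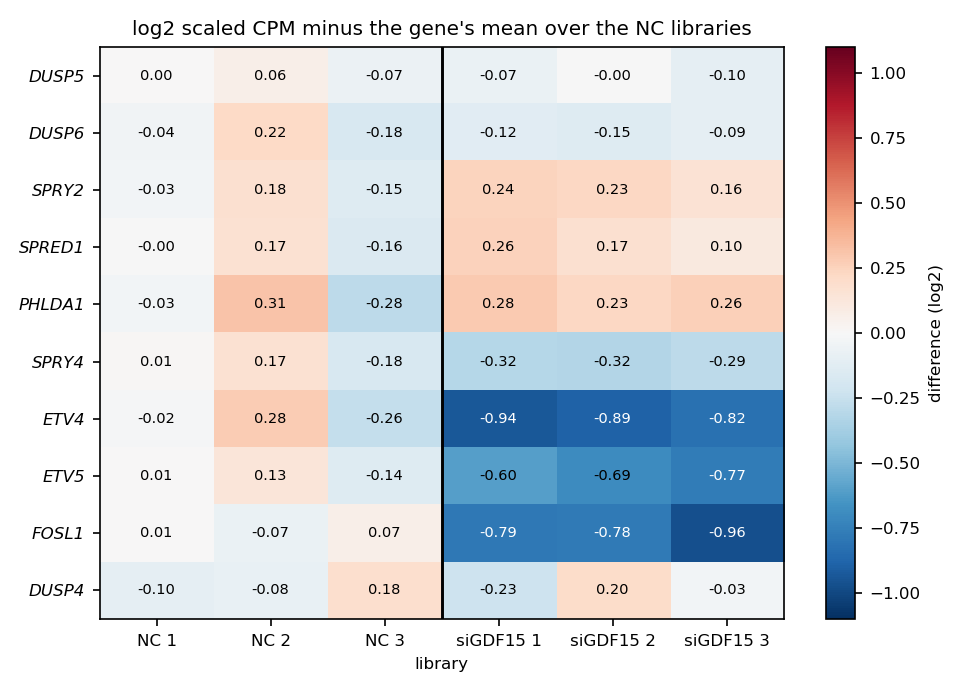
Difference of each library from the mean of the NC libraries for each of the 10 genes, in log2 scaled CPM (columns are libraries, red is above the NC mean and blue below). NC 2 is above and NC 3 below the mean in the upper 8 rows, and the siGDF15 columns are blue for SPRY4, ETV4, ETV5 and FOSL1 and light red for SPRY2, SPRED1 and PHLDA1.

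What the test said of the 3 genes with positive values depended on NC replicate 2. Without that library SPRY2 (log2 fold change 0.30, edgeR adjusted p = 0.00468), SPRED1 (0.26, edgeR adjusted p = 0.0133) and PHLDA1 (0.41, edgeR adjusted p = 0.00107) were all called higher. These 3 of 10 stand beside 31.0% of all genes tested without that library, a share near theirs. Without NC replicate 3 their values were 0.13, 0.09 and 0.10, and none passed. The 4 genes that fell passed with any 1 library left out. ETV4 ranged from -1.02 without NC replicate 3 to -0.75 without NC replicate 2.

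Ratios between genes within a library were compared because a factor that scales all genes of a library drops out of them. Of the 45 ratios among the 10 genes, 31 had groups that did not overlap and 14 overlapped. For single genes on scaled CPM the groups did not overlap in 67.9% of all tested genes. The 45 ratios share genes, and the share among ratios of other genes was not computed, so their count sets the 10 genes apart from no others. SPRY2 over SPRY4 was 1.46, 1.52 and 1.54 in NC and 2.22, 2.20 and 2.06 in siGDF15, a change of 0.52 in log2 that is far above the SD of 0.037 and 0.060 within the groups. The 2 Sprouty genes therefore changed unequally. SPRY2 over SPRED1 stayed between 1.56 and 1.66 in all 6 libraries, and its groups overlapped. DUSP6 over ETV4, a phosphatase against a transcription factor gene with similar levels in NC, was 1.21, 1.19 and 1.31 in NC and 2.18, 2.07 and 2.04 in siGDF15. DUSP5 over DUSP6 overlapped, with 1.45, 1.26 and 1.52 in NC and 1.46, 1.55 and 1.41 in siGDF15. ETV4 over PHLDA1 was 0.181, 0.175 and 0.183 in NC and 0.0769, 0.0825 and 0.0846 in siGDF15, and this was the change of largest size among the 45 (-1.14 in log2). SPRED1 over ETV5 lay between 0.386 and 0.402 in NC and between 0.712 and 0.719 in siGDF15. These ratios describe the 6 libraries and were given no test, since the numerators and denominators are the genes tested above.

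**Figure D4:**
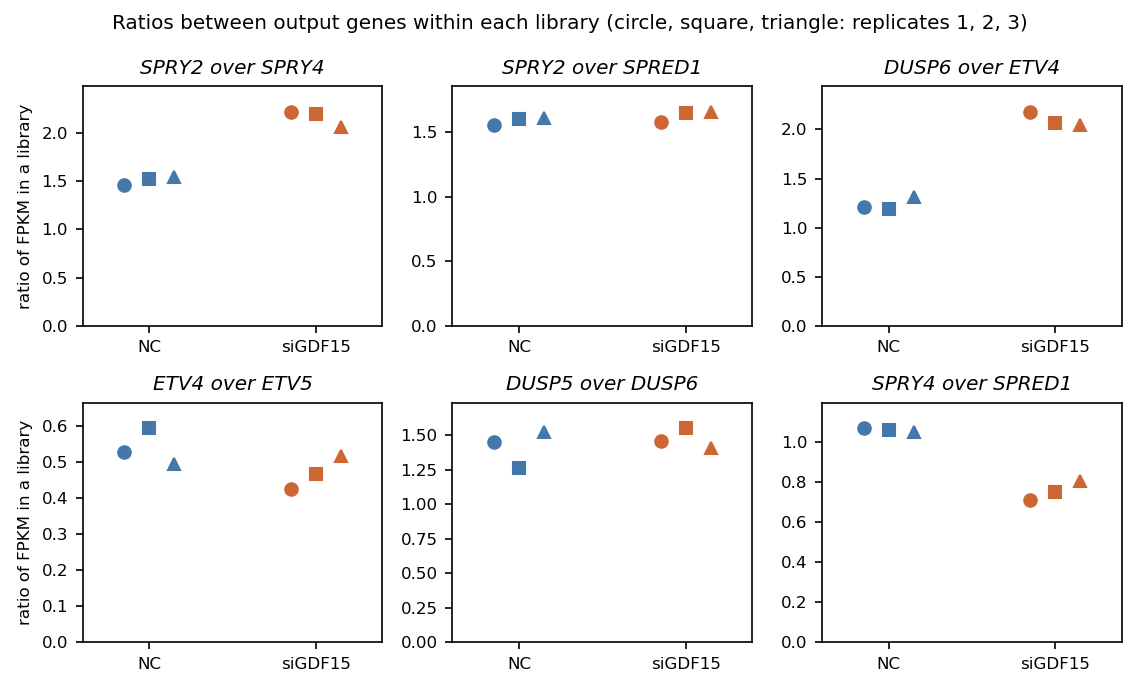
Ratio of the FPKM of a pair of the 10 genes within each library (vertical axes from 0), for 6 pairs. Circles, squares and triangles are replicates 1, 2 and 3 of NC (blue) and siGDF15 (orange). SPRY2 over SPRY4 and DUSP6 over ETV4 are higher in every siGDF15 library, SPRY4 over SPRED1 is lower (1.05 to 1.07 in NC and 0.711 to 0.806 in siGDF15), and the other 3 pairs overlap.

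The 3′UTRs of the 10 genes were searched for AU-rich elements, which mark short-lived mRNAs, since messages of feedback genes are often short-lived. The nonamer ATTTATTTA occurred in 0 of the 10 genes, beside 6.71% of the 10470 tested genes with a coding transcript, although the median 3′UTR was longer (1628 against 1110 bases). In a set of 10 genes a count of 0 is near that share. The pentamer ATTTA occurred 1.51 times per kilobase at the median of the 10 genes and 1.63 times at that of the tested genes. SPRED1 was highest, with 24 pentamers or 4.3 per kilobase, and DUSP5 and ETV4 had none. Genes that fell and genes that were not called thus both included a gene without the pentamer.

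The genes upstream of the 10 moved in both directions, as did all tested genes, of which 30.0% rose and 31.4% fell. Among receptors and ligands, 16 of 29 were tested, 2 rose and 3 fell (12.5% and 18.8%). The HGF receptor gene MET fell from 48.4 ± 6.19 to 30.3 ± 0.757 FPKM (SD, n = 3), with a log2 value of -0.57 (edgeR adjusted p = 5.2e-04). FGFR3 (-0.82) and the EGFR ligand gene TGFA (-0.23) also fell, while FGFR1 (0.59) and the neuregulin gene NRG1 (0.83) rose. Of 18 adaptor and RAS genes, 6 rose (33.3%), among them SHC1 (0.41), MRAS (0.85) and RRAS (0.61). Another 3 fell (16.7%), among them RASA2 (-0.39) and HRAS (-0.47).

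In the kinase cascade 14 of 17 genes were tested, 5 rose and 5 fell, with a median log2 fold change of 0.06. That is 35.7% each way, beside 30.0% and 31.4% of all tested genes. The 2 MEK genes differed in sign. MAP2K1 (MEK1) fell from 10.2 ± 0.526 to 5.90 ± 0.574 FPKM (SD, n = 3), with a log2 value of -0.68 (edgeR adjusted p = 8.3e-05). MAP2K2 (MEK2) rose from 13.0 ± 0.643 to 18.6 ± 0.969 FPKM (SD, n = 3), with a log2 value of 0.63 (edgeR adjusted p = 4.9e-05). Of the kinases that ERK activates, RPS6KA2 (0.28) rose and RPS6KA1 (-0.31) and RPS6KA4 (-0.53) fell, and the scaffold gene LAMTOR3 (0.35) rose. BRAF, KSR1 and RPS6KA5 were below the limit of 1 FPKM and not tested, and they are named here after their values were seen.

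Of 18 other feedback regulators 13 were tested, 4 rose and 4 fell (30.8% each way, near the background of 30.0% and 31.4%), with a median of 0.03. SPRED2, a relative of SPRED1, fell (-0.34), as did DUSP7 (-0.39), an ERK phosphatase, and the adaptor gene SH2B3 (-0.63). DUSP10 (0.63), a phosphatase of p38 and JNK, IER3 (0.45) and the EGFR inhibitor gene ERRFI1 (0.23) rose. Among immediate early and AP-1 genes, 18 of 22 were tested, 5 rose and 5 fell (27.8% each way, also near the background). JUND rose from 24.7 ± 3.05 to 45.3 ± 2.46 FPKM (SD, n = 3), with a log2 value of 0.98 (edgeR adjusted p = 3.5e-05), and FOSL2, the closest relative of FOSL1, rose by 0.33 in log2. KLF6 (0.49) rose, and KLF10 (-0.81), IER2 (-0.48) and SRF (-0.27) fell.

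Among other ETS factors and CIC, 14 of 15 were tested, 4 rose and 3 fell (28.6% and 21.4%, beside 30.0% and 31.4% of all tested genes). ELF3, an epithelial ETS factor, rose from 1.23 ± 0.282 to 7.07 ± 1.02 FPKM (SD, n = 3), with a log2 value of 2.62 (edgeR adjusted p = 6.6e-06). ETS2 (0.70) and ETV6 (0.57) rose, and ETV3 (-0.26), ELK3 (-0.22) and ELK1 (-0.19) fell.

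In the list of other ERK-linked output genes, 18 of 19 were tested, 11 fell and 1 rose, with a median log2 fold change of -0.25. A share of 61.1% fell, beside 31.4% of all tested genes. Cyclin D1, the product of CCND1, drives entry into the cell cycle, and CCND1 fell from 94.0 ± 8.88 to 44.8 ± 3.13 FPKM (SD, n = 3), with a log2 value of -0.96 (edgeR adjusted p = 1.9e-05). The receptor gene EPHA2 (-0.60) and PHLDA2 (-0.58), a relative of PHLDA1, fell, and the related receptor gene EPHA4 (0.70) rose. Over the KEGG MAPK pathway, as the deposited table annotates it, 186 of 278 genes were tested, 62 rose and 59 fell, with a median of 0.01. These are 33.3% and 31.7%, near the 30.0% and 31.4% of all tested genes. DUSP3 (1.16) and TGFB2 (1.38) rose past the fold limit and CDC25B (-1.12), STMN1 (-1.07) and HSPA1B (-1.56) fell past it. The lists were written with earlier results of these libraries known, and their counts describe these libraries only.

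**Figure D5:**
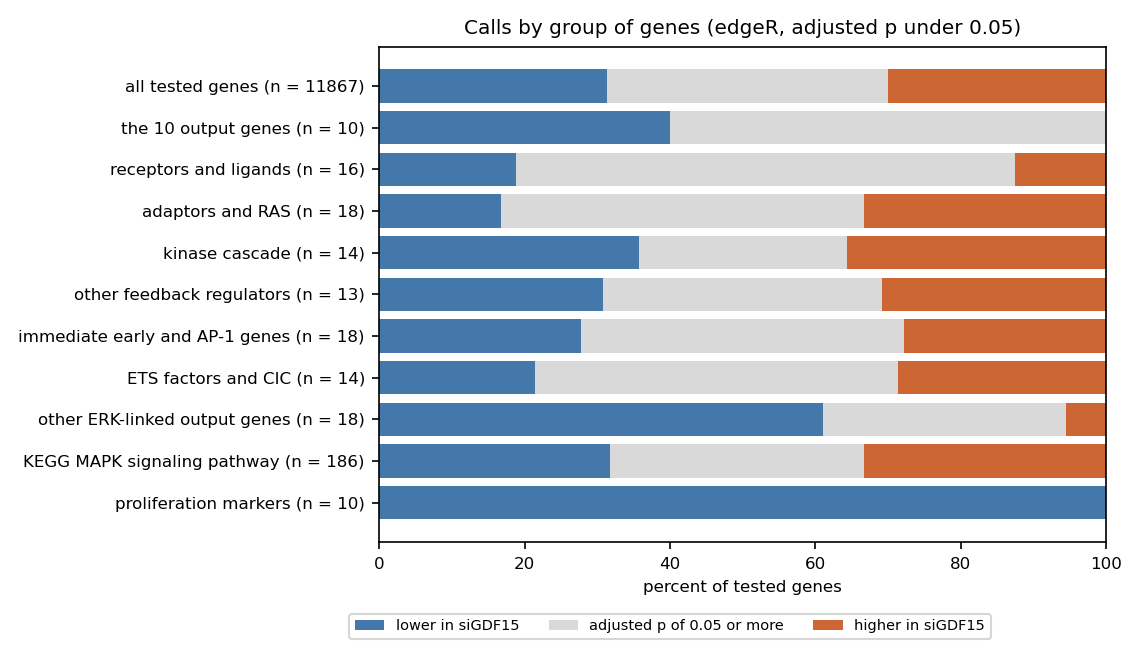
Share of tested genes called lower (blue), not called (grey) and called higher (orange) in siGDF15 by edgeR, for all tested genes, the 10 output genes, 8 further lists of the pathway and the proliferation markers (horizontal axis, percent of tested genes). The 10 output genes have 40.0% lower and 0 higher, the other ERK-linked output genes 61.1% lower and 5.56% higher, and the kinase cascade 35.7% in each direction.

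Proliferation markers were lower in siGDF15. All 10 of them fell past the fold limit, with a median log2 fold change of -1.66, CDK1 (-1.87), TOP2A (-1.89) and MKI67 (-1.74) first among them, and their summed FPKM was 593 to 614 in NC and 183 to 213 in siGDF15. Mitochondrially encoded genes held 6.39 to 6.78% of counts in NC and 8.53 to 9.17% in siGDF15. Of 9 tested interferon-stimulated genes, 4 rose, with IFIT2 (1.16), IRF7 (0.80) and IFIT3 (0.55) first among them, and OAS3 (-0.73) fell, and the list summed to 61.7 to 68.7 FPKM in NC and 63.6 to 77.9 in siGDF15. Of the epithelial markers 1 of 6 rose, and of the 8 leukocyte and endothelial markers 1 was tested and not called, with PTPRC, CD3E, CDH5 and VWF under 0.1 FPKM in each library. In thyroid markers 2 of 12 were tested, and PAX8 rose (0.53). The part of fewer cycling cells in the values of FOSL1, ETV4, ETV5 and SPRY4 was not tested, and in bulk RNA fewer cells with a transcript and less of it per cell cannot be told apart.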

How the data were processed

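Poly(A) RNA of 3 NC and 3 siGDF15 libraries was measured, and groups were taken from the sample labels. The authors deposited FPKM values, normalized by transcript length and mapped fragments, and expected counts, estimated from coverage and not normalized. The submitters' processing notes name fastp, HISAT2, StringTie, edgeR and GRCh38, with versions not given in the sources used here. The expected counts were whole numbers as deposited, so rounding changed none of them, and all per-library columns were used. Estimated counts are not a tally of reads, and a library's total limits the precision of low genes such as DUSP4.

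Expected counts were tested with edgeR 4.0.16 (glmQLFit and glmQLFTest, TMM, two-sided, R 4.3.3) on genes with a mean of at least 1 FPKM, with Benjamini-Hochberg adjustment over all of them, without covariates. The standard error of a fold change came from its quasi-likelihood F. Alternatives were scaling by total count, median-of-ratios size factors, DESeq2 1.42.0, a minimum of 0.1 FPKM, no filter, limma 3.58.1 on log2 of FPKM plus 1 or 0.1, a replicate block and each library left out in turn. With 3 libraries in each group the smallest two-sided p of an exact permutation test is 0.1, so none is printed. The edgeR and limma steps were tested on simulated data. In these few genes were changed, as many up as down, whereas 61.4% of tested genes were called here. The simulation therefore does not bear on the TMM scaling of these libraries.

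Scaled CPM were counts over TMM library sizes. Positions in the table are those of GENCODE 29 on GRCh38. For each coding gene 1 transcript of that release was searched for 3′UTR motifs. Every one of the 10 genes was named. Of each other pathway list, the called genes with the smallest adjusted p were named, up to 3 in each direction, together with genes near 0 in all libraries and GDF15. Some genes that this rule would name are not reported here. The 10 genes and the lists were chosen with earlier results of these data known.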

Additional observations from a re-analysis of the deposited data

How the results depend on the processing

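FOSL1, ETV4, ETV5 and SPRY4 were called lower in all 14 alternatives, of which 6 left out 1 library each. The number of the 10 genes called higher was 0, and it was 1 with DESeq2 and 1 with the replicate block (SPRY2 in both, adjusted p = 0.0418 and 0.0496), and 0 to 3 with each library left out, the 3 arising without NC replicate 2. The number past the fold limit was 0, and it was 1 (ETV4) with total-count scaling and 0 to 1 with each library left out (ETV4, -1.02 without NC replicate 3). DUSP4 lay between -0.12 and 0.09 with each library left out, above 0 without NC replicate 3 (0.08) and without siGDF15 replicate 1. Called genes among receptors and ligands were 5, and 8 with a minimum of 0.1 FPKM, where more genes are tested, and among thyroid markers 1, and 2 with that minimum and with no filter. Epithelial markers had 1 called gene, 2 with DESeq2, 0 with total-count scaling, the 0.1 FPKM minimum, no filter and either limma fit, and 0 to 6 with each library left out, the 6 arising without NC replicate 3. Fibroblast markers had 0 called, and 0 to 2 with each library left out, the 2 again without NC replicate 3. The cause of these moves was not tested. Among all called genes 48.9% were higher, and 36.6% with total-count scaling or limma on FPKM, where the median of all tested genes lay between -0.100 and -0.081. Deviations of same-numbered libraries correlated at 0.028, -0.075 and 0.046, and those of differently numbered libraries at -0.135 to 0.089. These values gave no sign of pairing by number, but with 3 libraries per group they cannot exclude it. Apart from SPRY2, the replicate block changed no call among the 10 genes. Depth limits DUSP4 most.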
